A study of Mus musculus with 9 samples.

Results

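The 9 genes P2ry12, Tmem119, Cx3cr1, Csf1r, Trem2, Tyrobp, Gpr34, Siglech and Fcrls were described across every library and cell type of a single-cell RNA sequencing study of the mouse brain. They are 9 of the 18634 genes of the count table and were taken as a list of homeostatic microglia genes that was drawn up with earlier results of these data known. Each was measured in all 29571 cells, in the 5207 cells that held 2 or more unique molecular identifiers (UMIs) of the complement genes C1qa, C1qb and C1qc together, and in cells with a published type. A UMI tags 1 captured transcript, and a level is the sum of a gene's UMIs over a class of cells relative to all UMIs of that class, on the scale known as CPM.

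Microglia are the resident macrophages of the brain, and in healthy tissue they survey their surroundings with moving processes. The state in which they do so is called homeostatic and is marked by a set of surface receptors and their adaptors, many of which are lowered in disease and injury. The C1q genes encode the recognition subunit of the classical complement pathway, which microglia and the macrophages at the borders of the brain both make.

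Brainstem, cortex and hypothalamus were taken from male C57BL/6J mice of 9 to 11 weeks at ZT12, the time of lights off. Mice had slept freely (NS, normal sleep) or had been kept awake for 12 h by a bar sweeping the cage floor (SD, sleep deprivation). Others had recovered from that deprivation (RS, recovery sleep). Recovery took 24 h by the published methods, while the group name in the labels of all RS samples gives 12 h. Each library pooled a region from 3 mice, which had been digested with papain, cleared of myelin on beads and captured in 10x Chromium droplets, and there was 1 library, with no replicate, for each of the 9 combinations. All animals were of the wild type, and all were singly housed.

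Libraries are numbered 1 to 9 in the order of their codes in the table, and a number says nothing about region or group. Only library 7 could be placed: it held all 1999 barcodes of a published list of brainstem NS cells, against 5 to 13 in each of the others, and that list gives the cell types used here. The other 8 libraries were left without a region or group, and no comparison between sleep groups was made. The libraries held 2575 to 3916 cells and 1522766 to 5488950 UMIs, with a median of 402 to 1055 UMIs per cell, and any 2 of them shared 5 to 25 barcodes. Libraries 4, 5 and 6 stood apart, since pituitary hormone genes took 30.3%, 30.0% and 37.9% of their UMIs and at most 0.00959% in the others. The main ranges of the 9 genes over libraries are therefore also given without them. Intervals are exact 95% intervals and cover counting error only.

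Upstream sequence was at hand from RefSeq (GRCm38.p6) for 5 of the 9 genes, P2ry12, Fcrls, Siglech, Cx3cr1 and Trem2. The 250 bases before the start of P2ry12 (chr3:59262986-59263235, minus strand) and of Trem2 (chr17:48346151-48346400, plus strand) are shown because these genes had the largest and the median of the 9 ratios of microglia to macrophages. Capitals mark GAGGAA or its reverse TTCCTC, the core bound by PU.1, the myeloid transcription factor that Spi1 encodes.
P2ry12: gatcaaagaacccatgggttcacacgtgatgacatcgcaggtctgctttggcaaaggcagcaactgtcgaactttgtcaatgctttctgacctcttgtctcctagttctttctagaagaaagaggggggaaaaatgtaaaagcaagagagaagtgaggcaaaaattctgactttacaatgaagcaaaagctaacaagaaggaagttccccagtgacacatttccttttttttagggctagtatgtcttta
Trem2: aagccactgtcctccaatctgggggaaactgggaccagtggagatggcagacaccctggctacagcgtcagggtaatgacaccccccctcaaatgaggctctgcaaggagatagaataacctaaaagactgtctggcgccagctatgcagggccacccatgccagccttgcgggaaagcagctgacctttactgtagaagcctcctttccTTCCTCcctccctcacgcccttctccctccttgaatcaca
The core was searched on both strands. It was found upstream of 2 of the 5 genes, Trem2 and Fcrls, once in each, and in 23.3% of all 32851 promoters of the table over the same length. A match of these letters is a description and not a bound site.

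The genes lie on 7 chromosomes of GRCm38 as GENCODE M21 places them. P2ry12 (chr3:59216272-59262871, minus strand) and Fcrls (chr3:87250758-87263738, minus strand) share a chromosome, as do Tyrobp (chr7:30413760-30417585, plus strand) and Siglech (chr7:55768178-55778925, plus strand). Tmem119 lies at chr5:113793729-113800516 on the minus strand, Cx3cr1 at chr9:119901616-120069879 on the minus strand, Trem2 at chr17:48346401-48354147 on the plus strand, Csf1r at chr18:61100598-61132149 on the plus strand and Gpr34 at chrX:13632089-13640858 on the plus strand. P2ry12 lies within Med12l and Gpr34 within Cask, each on the opposite strand. These hosts gave 11 and 21 UMIs in the listed microglia, against 1257 of P2ry12 and 971 of Gpr34.

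In library 7 every one of the 9 genes was highest in microglia among the 11 listed cell types. The 549 microglia held 8902 UMIs of the 9 genes, or 17549 CPM (17186 to 17917), against 4287 CPM (3853 to 4756) in the 67 macrophages and 529 CPM (494 to 565) in all other listed cells. The intervals of the first and the second type were apart for each of the 9 genes. Between microglia and the other listed cells, 7.96% of 11676 genes were at least 2-fold higher and 19.7% at least 2-fold lower in microglia. The types were made by clustering the same counts, so the levels by type are a description and carry no test.

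The label of microglia was checked against markers that are not among the 9 genes. All 549 of these cells held 2 or more C1q UMIs, with a median of 21. Of the markers of border macrophages, Mrc1, Cd163, Lyve1 and Clec10a were at 0 UMIs in microglia, and Pf4, Ms4a7, Cbr2 and F13a1 gave 6, 3, 1 and 1. Stab1 was at 101 CPM against 193 CPM in macrophages. Lyz2 was found in 30.1% of microglia, at 670 CPM against 10260 CPM. The summed level of the 10 markers was 792 CPM, against 13259 CPM in macrophages. Lyz2 gave most of these UMIs, 340 of 402 in microglia and 852 of 1101 in macrophages.

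**Figure D1:**
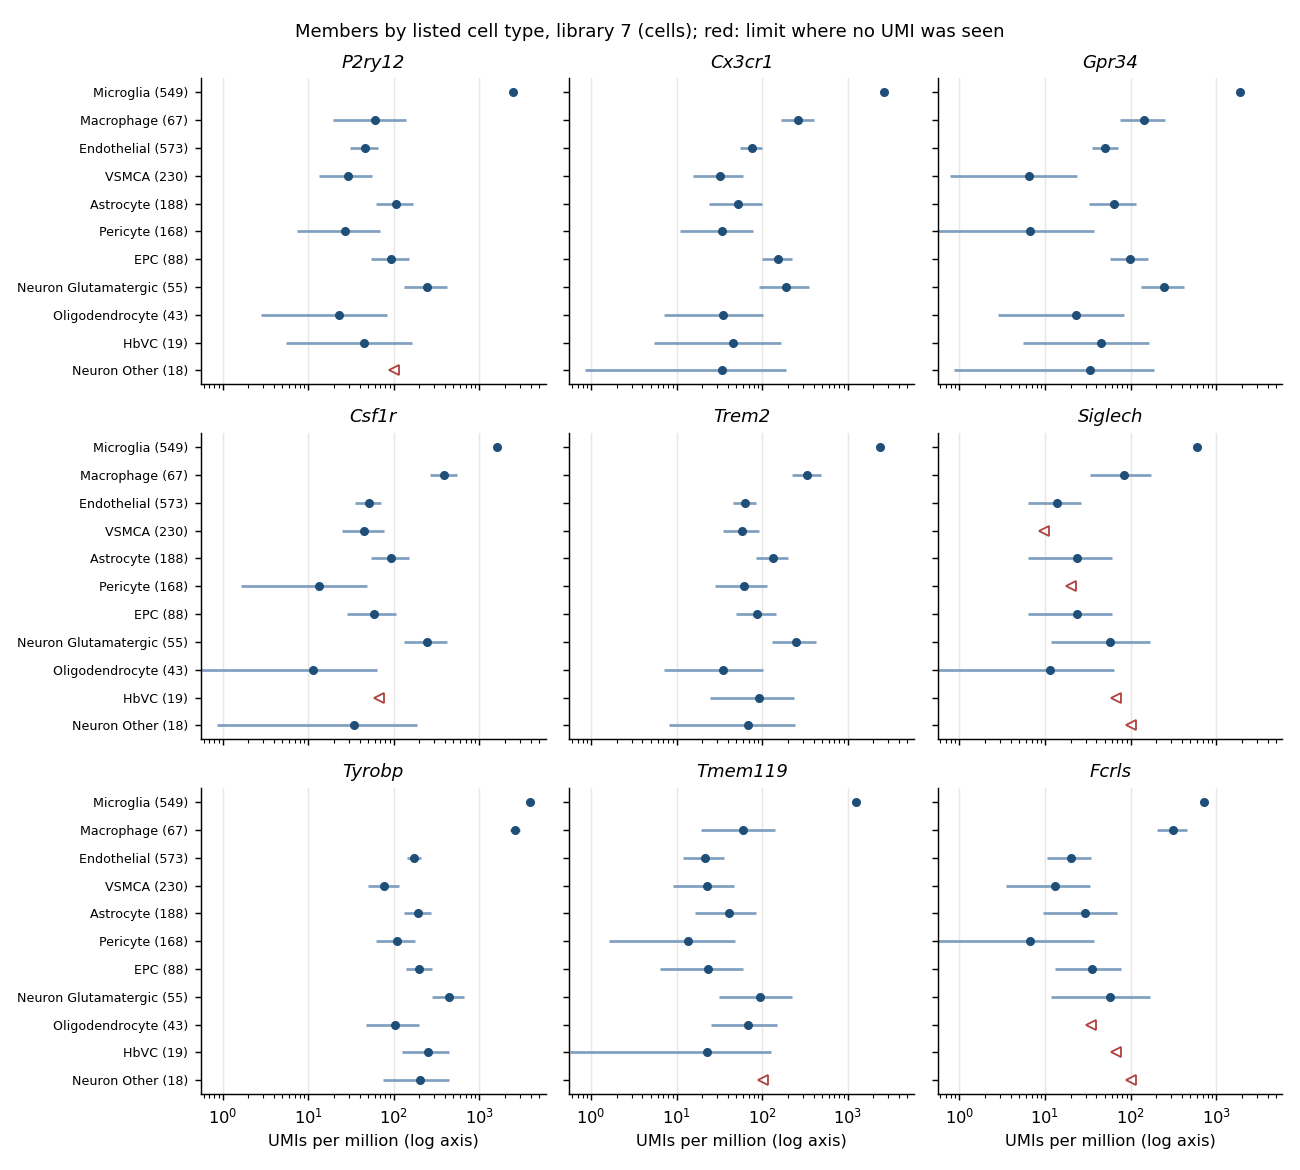
Level of each of the 9 genes, in CPM on a log axis, in the 11 cell types of library 7, with the number of cells of each type in brackets. Points are levels, lines are exact 95% Poisson intervals and open triangles mark the limit that 3 counts allow where no UMI was seen; microglia lie to the right of all other types in each panel.

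The receptors for extracellular signals were compared over microglia, macrophages and all other listed cells. P2ry12, a receptor for extracellular ADP that guides microglial processes, was at 2478 CPM in microglia, 60.2 CPM in macrophages and 56.7 CPM in the other listed cells. Cx3cr1, the receptor for the neuronal chemokine fractalkine, was at 2651, 265 and 69.3 CPM in the same classes. Gpr34, a receptor for lysophosphatidylserine, was at 1914, 145 and 49.4 CPM. The level of P2ry12 in macrophages therefore lay within the interval of the other listed cells (45.8 to 69.3), whereas that of Cx3cr1 lay above its interval (57.2 to 83.2).

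Csf1r, the receptor for colony stimulating factor 1 and interleukin 34 on which microglia depend for survival, was at 1593 CPM in microglia, 385 CPM in macrophages and 54.3 CPM in the other listed cells. Trem2, a lipid-sensing receptor that signals through the adaptor encoded by Tyrobp, was at 2405, 337 and 77.2 CPM. Siglech, a sialic acid binding lectin that also uses this adaptor, was at 597, 84.3 and 12.7 CPM. The adaptor gene Tyrobp itself was at 3911, 2637 and 162 CPM, which was the highest level of the 9 genes in each of the 3 classes. UMIs count captured transcripts and were not divided by gene length.

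Tmem119, a transmembrane protein used as a marker of microglia, was at 1268 CPM in microglia, 60.2 CPM in macrophages and 27.7 CPM in the other listed cells. Fcrls, an Fc receptor-like scavenger molecule, was at 731, 313 and 19.3 CPM. These genes differed in their second type: for Tmem119 it was glutamatergic neurons, as for P2ry12 and Gpr34, and for the other 6 genes it was macrophages.

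The level in glutamatergic neurons rested on few cells. The 55 cells listed under that type held 13 UMIs of P2ry12, 5 of Tmem119 and 13 of Gpr34, and 3 of the cells, each with UMIs of 5 or more of the 9 genes and with 20 to 31 C1q UMIs, held 66 of the 96 UMIs of the 9 genes. Without these 3 cells the summed level of the type was 633 CPM in place of 1830 CPM. P2ry12, Tmem119 and Gpr34 were then at 63.3, 42.2 and 63.3 CPM in it, and it was no longer second for these genes. Astrocytes were higher for P2ry12 (106 CPM), oligodendrocytes for Tmem119 (69.3 CPM) and macrophages for Gpr34 (145 CPM). In ependymocytes (EPC) 4 of 88 cells held 59.8% of the UMIs of the 9 genes, and the summed level was 775 CPM with them and 339 CPM without them. Whether such cells are doublets was not tested.

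Shares of cells with a UMI were highest in microglia as well. After every cell had been thinned to 500 UMIs, P2ry12 was found in 67.9% (63.8 to 71.8) of 542 microglia, 1.52% (0.0384 to 8.16) of 66 macrophages and 2.11% of the other listed cells. For Tyrobp the shares were 81.9% (78.4 to 85.1), 63.6% (50.9 to 75.1) and 6.78%. For Fcrls they were 29.0% (25.2 to 33.0), 16.7% (8.62 to 27.9) and 1.09%. The share of P2ry12 in macrophages rested on 1 cell and its interval held the share of the other listed cells, while those of Tyrobp and Fcrls lay above it. Before thinning, P2ry12 was found in 84.7% of microglia, 7.46% (2.47 to 16.6) of macrophages and 4.92% of the other listed cells. For Tyrobp these shares were 91.4%, 79.1% and 14.5%, and for Fcrls 42.8%, 26.9% and 2.10%, at a median of 796 UMIs per microglial cell, 1133 per macrophage and 960 per other listed cell.

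The 9 genes occurred together in single cells. Of the 549 microglia, 491 held UMIs of 5 or more of the genes, 31 held all 9 and none held 0, with a median of 6. After thinning to 500 UMIs the median was 5, and 347 of 542 microglia, or 64.0% (59.8 to 68.1), held 5 or more. Of 66 thinned macrophages 0 did, which allows a share of up to 5.44%, and their median was 1. Before thinning 4 of the 67 macrophages held 5 or more, and their median was 2. Among 1371 thinned cells of the other types 81.9% held no member of the list, 15.5% held 1 and 3 cells held 5.

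**Figure D2:**
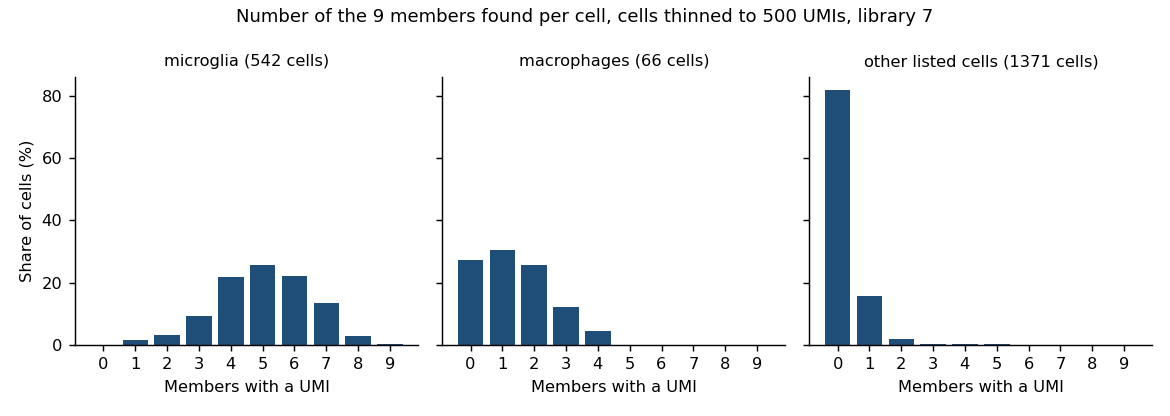
Share of cells, in percent, by the number of the 9 genes with at least 1 UMI, for microglia, macrophages and all other listed cells of library 7, each cell thinned to 500 UMIs. Microglia centre on 5 genes per cell, macrophages on 1 and other cells on 0.

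Across the 11 types the levels of the genes varied together. Over the 36 pairs of the 9 genes, Pearson's r of log2(CPM + 10) ran from 0.694 to 0.961 with a median of 0.892, where the points share a library and differ in depth. Microglia were the highest of the 11 points for each of the 9 genes, which had been listed as microglia genes. High values of r follow from that choice and carry no test. For comparison, the mean r to the 9 genes had a median of 0.206 over 2536 genes of at least 50 CPM in microglia, which were not chosen as microglia genes. The genes whose pattern was most like that of the list, by this mean r, included Fermt3, Selplg, Lgmn, Apbb1ip, Bin2, Pou2f2, Pld4, C1qb and Hvcn1, with mean r from 0.922 to 0.904. Fermt3 is an integrin activator of blood cells, Selplg the P-selectin ligand and Lgmn the lysosomal protease legumain. Of these, Lgmn was at 3988 CPM and Selplg at 2312 CPM in microglia, while Fermt3 was at 101 CPM.

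The contrast between microglia and macrophages of library 7 separated the 9 genes over a wide range. With 10 CPM added to both levels, 8 of the 9 were at least 2-fold higher in microglia, as were 24.0% of the 5778 genes with 10 or more UMIs in the compared cells, and none was at least 2-fold lower, as were 6.59% of those genes. The median difference was 2.80 on the log2 scale over the 9 genes and 0.33 over all genes compared. Of the listed macrophages, 71.6% held a UMI of Lyz2, 43.3% of Pf4, 31.3% of Mrc1 and 14.9% of the monocyte gene Ccr2. Whether monocytes are among them was not tested.

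P2ry12 had the largest ratio of the 9, 41.2 (17.6 to 127), from 1257 UMIs in microglia and 5 in macrophages. Tmem119 followed with 21.1 (8.97 to 65.1), from 643 and 5 UMIs. Gpr34 was 13.2 times as high (7.55 to 25.7) and Cx3cr1 10.0 times as high (6.58 to 16.0). The intervals of P2ry12 and Cx3cr1 were apart, while each of the 4 overlapped with its neighbour in this order.

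Trem2 and Siglech were close to each other, with ratios of 7.13 (4.91 to 10.8) and 7.09 (3.40 to 17.8). Csf1r, which macrophages need as well, had a ratio of 4.13 (2.90 to 6.08) and Fcrls one of 2.34 (1.57 to 3.62). Tyrobp was the gene that did not reach 2-fold, with a ratio of 1.48 (1.29 to 1.71) from 1984 and 219 UMIs. The receptor Trem2 and its adaptor gene Tyrobp thus differed in this contrast, and their intervals did not overlap.

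The choice of macrophages moved 1 of the 9 genes, Fcrls, across 2-fold. Among the 46 macrophages that themselves held 2 or more C1q UMIs, Fcrls was at 397 CPM (257 to 587), and its difference to microglia fell from 1.20 to 0.86 on the log2 scale, below 2-fold. Tyrobp was at 3037 CPM (2621 to 3499) in these cells and at 3911 CPM (3741 to 4087) in microglia. The other 7 genes stayed at least 2-fold higher in microglia.

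**Figure D3:**
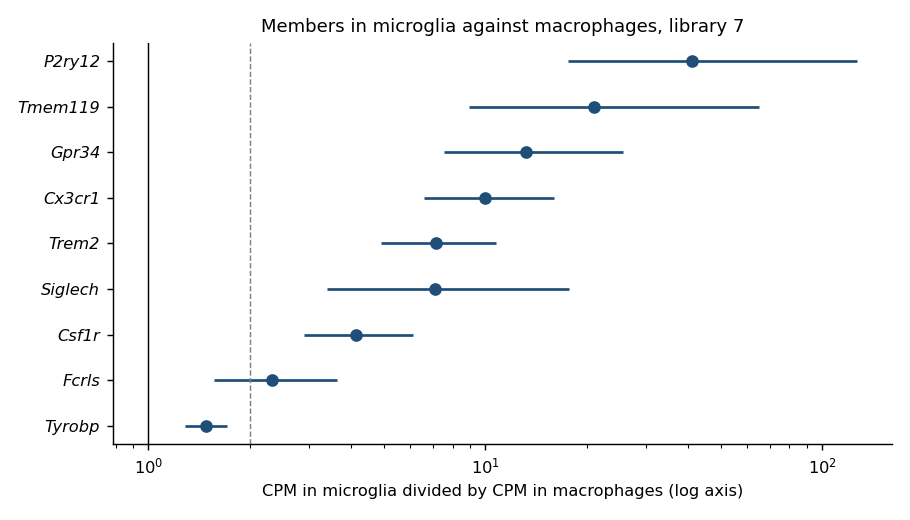
Ratio of the CPM in 549 microglia to the CPM in 67 macrophages of library 7 for each of the 9 genes, on a log axis. Points are ratios, lines are exact 95% intervals, the solid line marks equal levels and the dashed line 2-fold; P2ry12 lies farthest to the right at 41.2 and Tyrobp farthest to the left at 1.48.

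Genes that act with the 9 members were compared in the same cells. Of 16 other genes of the homeostatic state, all 16 were at least 2-fold higher in microglia than in macrophages, beside 24.0% of all genes compared. Olfml3, a secreted glycoprotein, was at 743 CPM against 36.1 CPM, and Sall1, a transcription factor that keeps microglial identity, gave 72 UMIs in microglia and 0 in macrophages. Of 10 ligands and signalling partners with enough UMIs, 4 were higher in this sense and 1, Hcst, was lower, beside 24.0% and 6.59% of all genes. Among the 4, the interval of the ratio held 1 for Entpd1 (0.993 to 7.68), Syk (0.465 to 123) and Plcg2 (0.611 to 155). Syk and Plcg2 rested on 1 UMI each in macrophages. For Inpp5d the interval lay above 1 (2.84 to 646), also from 1 UMI in macrophages. Hcst, which encodes a second adaptor of the same kind as that of Tyrobp, was at 63.1 CPM in microglia and 265 CPM in macrophages.

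Of 10 regulators with enough UMIs, 6 were at least 2-fold higher in microglia, beside the same 24.0% of all genes, and none was lower. For Cebpa among the 6, with 3 UMIs in macrophages, the interval of the ratio held 1 (0.788 to 12.4). Tgfbr1, a receptor subunit for transforming growth factor beta, was at 828 CPM against 132 CPM. Spi1, the gene of PU.1, was at 309 CPM in microglia and 325 CPM in macrophages, with a ratio of 0.952 (0.630 to 1.49).

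Outside library 7 no cell types were at hand, and microglia were approached through the C1q gate. Of the 793 listed cells of library 7 that passed it, 549 or 69.2% were microglia, 46 were macrophages and 198 or 25.0% were of other types. Library 7 held 1450 gated cells in all, and 1732 of its cells had no listed type, so these shares cover only the gated cells with a type. The gate takes in every listed microglial cell together with others. Gated cells were 38.9% of library 7 and from 1.20% (library 6) to 38.9% over all 9 libraries, with a median of 10.2%, and from 0.843% to 31.3% after thinning to 500 UMIs. The range without libraries 4, 5 and 6 was 7.94% to 38.9% and the median 25.8%, with 3.95% to 31.3% after thinning. Gated cells had a median of 323 to 1036 UMIs and the other cells one of 419 to 1055. In libraries 1 and 2, 465 of 560 and 255 of 323 gated cells held under 500 UMIs.

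In all 9 libraries the 9 genes were higher in gated cells than in the other cells of the same library, and the interval of the ratio lay above 1 for all 81 combinations of gene and library, and for 54 of 54 without libraries 4, 5 and 6. In cells of at least 1000 UMIs it did so for 71 of the 81. In libraries 1, 2, 3, 4, 5, 7, 8 and 9 each of the 9 genes was at least 2-fold higher, as were 7.11%, 6.50%, 5.24%, 7.03%, 8.55%, 5.10%, 5.02% and 2.66% of all genes compared in these libraries in turn. In library 6, 7 of the 9 had enough UMIs and all 7 were at least 2-fold higher, as were 10.4% of all genes compared. Each of the 9 genes was at least 2-fold higher in 5 or more of the 9 libraries, as were 3.49% of 16813 genes. The cells had been chosen by C1q and not by these genes. Every listed microglial cell passed that gate, however, and the 9 genes were listed as microglia genes. Their higher levels in gated cells follow from these choices and are a description.

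The summed level of the 9 genes in gated cells was lowest in library 6 at 2304 CPM (1964 to 2687), had a median of 7025 CPM and was highest in library 1 at 10318 CPM (9926 to 10721). Without libraries 4, 5 and 6 it ran from 4324 CPM in library 9 to 10318 CPM, with a median of 8422 CPM. The level depended on the cells taken: over all 9 libraries its median was 2815 CPM with a gate of 1 C1q UMI, 1838 CPM in cells of at least 1000 UMIs and 13092 CPM without cells holding 3 or more UMIs of another class's markers. The 4 lowest libraries were 6, 9, 5 and 4, so the 3 libraries with hormone UMIs were among them. In cells without any C1q UMI the summed level ran from 21.4 CPM (library 6) to 354 CPM (library 7) with a median of 92.5 CPM. The share of such cells with any UMI of the 9 genes was 2.28% to 29.4%, and 0.955% to 16.5% after thinning. Without libraries 4, 5 and 6 the level in these cells ran from 61.9 CPM to 354 CPM and the share from 4.98% to 29.4%, or from 2.91% to 16.5% after thinning.

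P2ry12 in gated cells was lowest in library 6 at 99.0 CPM, had a median of 711 CPM and was highest in library 7 at 1222 CPM. Over all cells of a library its level ran from 2.37 CPM to 528 CPM with a median of 95.1 CPM, and its share of cells from 0.281% to 25.4%. In cells without a C1q UMI it ran from 0.763 CPM to 32.7 CPM. All 3 lowest values were in library 6, which held 13 UMIs of P2ry12. Without libraries 4, 5 and 6 the level over all cells, where the number of microglia enters too, ran from 51.5 CPM (library 3) to 528 CPM, or 10.3-fold, the share of cells from 4.28% to 25.4%, and the level without C1q UMIs from 8.71 CPM to 32.7 CPM.

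Cx3cr1 in gated cells ran from 254 CPM (library 6) through a median of 708 CPM to 1323 CPM (library 7). Gpr34 had the widest range of the 9, from 42.4 CPM (library 6, 3 UMIs) through 594 CPM to 981 CPM (library 7). Without libraries 4, 5 and 6 the lowest values of P2ry12, Cx3cr1 and Gpr34 were 337, 607 and 379 CPM, and the ranges narrowed to 3.62-fold, 2.18-fold and 2.59-fold. Of these 3 receptors the range of Gpr34 narrowed most, from 23.1-fold.

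Csf1r in gated cells ran from 198 CPM (library 6) through 834 CPM to 1376 CPM (library 2). Trem2 ran from 297 CPM (library 6) through 904 CPM to 1533 CPM (library 1), and Siglech from 56.5 CPM (library 6) through 311 CPM to 587 CPM (library 1). Tyrobp had the narrowest range of the 9, from 1004 CPM (library 6) through 2088 CPM to 2672 CPM (library 1), which is 2.66-fold. It was also found in the most gated cells, 58.2% to 73.1% of them, and after thinning in 30.9% to 62.0%. Without libraries 4, 5 and 6 the lowest values were all in library 9, at 426 CPM for Csf1r, 555 CPM for Trem2, 148 CPM for Siglech and 1481 CPM for Tyrobp.

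Tmem119 in gated cells ran from 141 CPM (library 6) through 453 CPM to 751 CPM (library 2), and from 240 CPM (library 9) without libraries 4, 5 and 6. Fcrls was the gene whose lowest library was not library 6: it ran from 150 CPM (library 9) through 381 CPM to 844 CPM (library 2), and without libraries 4, 5 and 6 its range of 5.63-fold was unchanged.

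**Figure D4:**
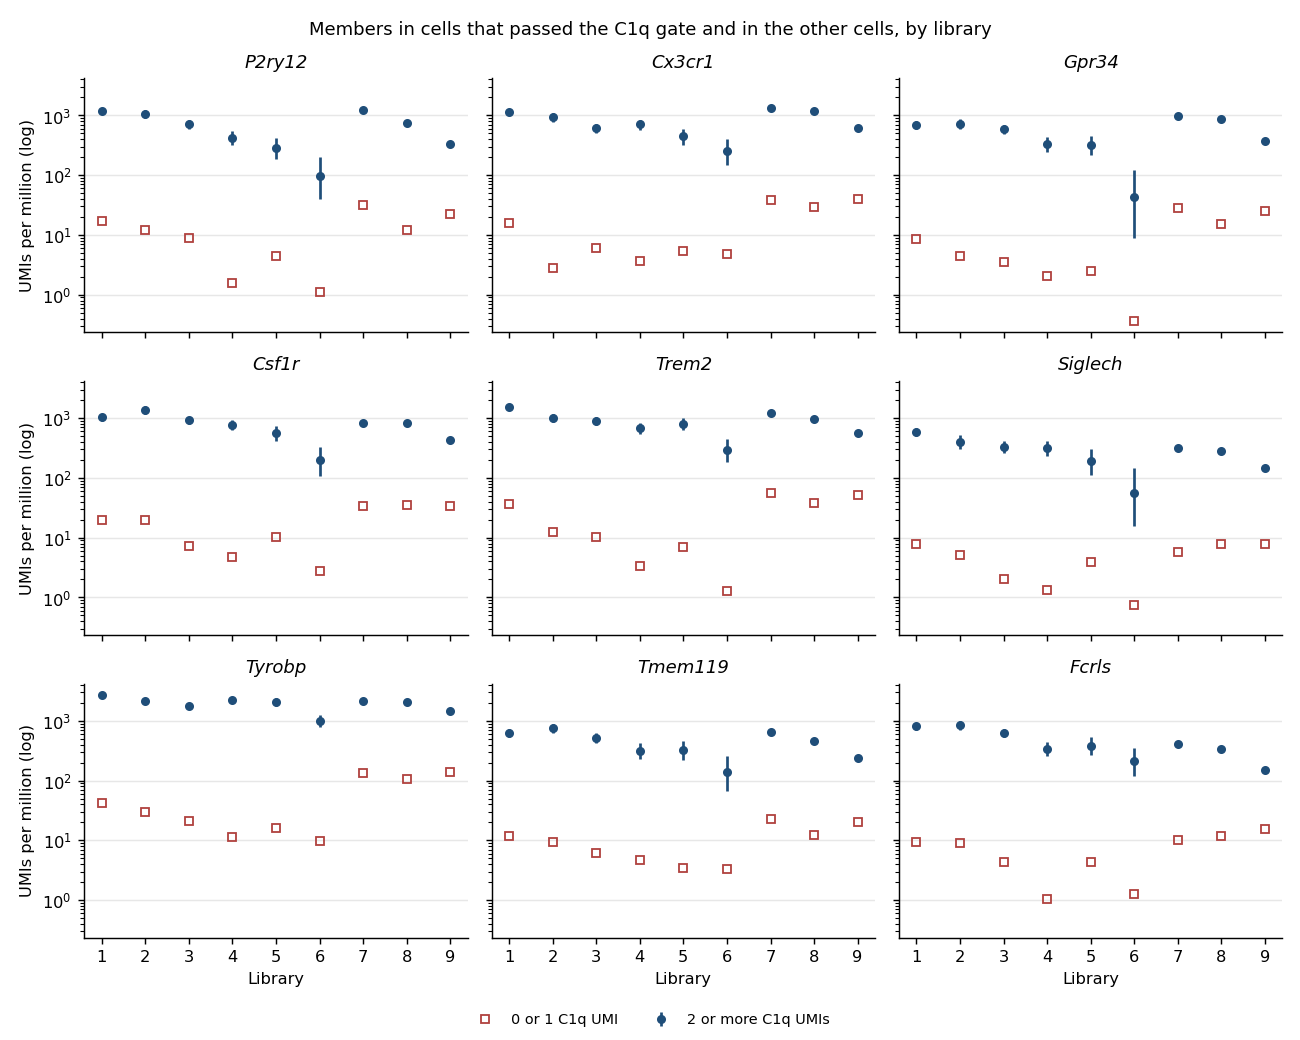
Level of each of the 9 genes, in CPM on a log axis, by library, in cells with 2 or more C1q UMIs (filled, with exact 95% Poisson intervals) and in the other cells of the library (open squares). The filled points lie above the open ones in every library, and library 6 has the lowest filled point for all genes but Fcrls.

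Gated cells held most of the summed UMIs of the 9 genes in every library, from 54.3% in library 6 to 94.8% in library 7 with a median of 88.2%, and at least 86.7% without libraries 4, 5 and 6. For single genes this did not hold in library 6, where gated cells held 35.7% of the UMIs of Tmem119, 40.9% of those of Cx3cr1 and 48.3% of those of Csf1r, and 4 of the 8 UMIs of Siglech. The ratio of gated over other cells was lowest in library 9 for each of the 9 genes, from 9.59 for Fcrls to 18.6 for Siglech. In library 9 the other cells had a summed level of 358 CPM, as they did in library 7, and gated cells one of 4324 CPM (4230 to 4419), less than the 9072 CPM (8935 to 9210) of library 7.

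The level of the 9 genes was higher in cells with more C1q UMIs. Pooled over all libraries it was 112 CPM in the 21004 cells with 0 C1q UMIs, 295 CPM at 1, 487 CPM at 2, 1898 CPM at 3 to 5, 6961 CPM at 6 to 10, 12894 CPM at 11 to 20 and 15619 CPM in the 836 cells above 20. P2ry12 took the same course from 8.85 CPM to 1804 CPM and Tyrobp from 40.3 CPM to 4285 CPM. These classes draw on the libraries in different shares. Within a library the summed level rose at each of the 6 steps in libraries 2, 3, 4, 6, 8 and 9 and at 5 of the 6 in libraries 1, 5 and 7. In library 7 the level at 2 C1q UMIs, 350 CPM in 253 cells, was no higher than the 354 CPM at 0. The levels of a class differed between libraries. At 3 to 5 C1q UMIs they ran from 782 CPM (library 7) to 10741 CPM (library 1). Above 20 they ran from 6878 CPM (library 6, 1 cell) to 19427 CPM (library 2, 2 cells). Deeper cells hold more UMIs of any gene, and the median depth of these classes did not rise in step with C1q. It was lowest at 6 to 10 C1q UMIs (552 UMIs) and highest at 2 (1277 UMIs).

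The makeup of the UMIs of the 9 genes differed between libraries. Tyrobp took the largest share of them in all 9 libraries, from 23.3% (21.1 to 25.6) in library 2 to 43.6% (35.8 to 51.5) in library 6, with a median of 26.2%. Gpr34 took from 1.84% (library 6) to 11.3% (library 8), P2ry12 from 4.29% (library 6) to 13.5% (library 7) and Cx3cr1 from 8.24% (library 5) to 15.5% (library 8). For these 4 genes and for Fcrls the intervals of the extreme libraries were apart, while for Tmem119, Csf1r, Trem2 and Siglech they overlapped. Other pairs of libraries were apart for these 4 genes too, such as 9.26% to 12.6% for Trem2 in library 2 against 13.5% to 16.3% in library 1, and 3.04% to 3.85% for Siglech in library 9 against 4.83% to 6.65% in library 1. With libraries 4, 5 and 6 left out Tyrobp took 23.3% to 34.2%, Gpr34 6.76% to 11.3% and P2ry12 7.80% to 13.5%.

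Fcrls took its smallest shares, and Cx3cr1 and Gpr34 their largest, in the same 3 libraries, a pattern noticed in the data. Fcrls took 4.47% (4.17 to 4.80), 4.40% (3.97 to 4.87) and 3.47% (3.08 to 3.89) of the UMIs in libraries 7, 8 and 9, against 7.87%, 9.12% and 8.96% in libraries 1, 2 and 3 and 5.66%, 7.06% and 9.20% in libraries 4, 5 and 6. Cx3cr1 took 14.6%, 15.5% and 14.1% in libraries 7, 8 and 9, against 11.3%, 10.1% and 8.64% in libraries 1, 2 and 3 and 11.6%, 8.24% and 11.0% in libraries 4, 5 and 6. The intervals of libraries 7, 8 and 9 were apart from those of libraries 1, 2 and 3 for both Fcrls and Cx3cr1, and those of libraries 4 and 6 overlapped with some of them for Cx3cr1, as did that of library 4 for Fcrls. Gpr34 took 10.8%, 11.3% and 8.76% in libraries 7, 8 and 9 and 1.84% to 8.45% in the others. The interval of library 9 (8.15% to 9.40%) overlapped with those of library 2 (6.34% to 9.21%), library 3 (7.12% to 9.94%) and library 5 (4.00% to 8.29%). Gating on 5 C1q UMIs left Fcrls lowest in library 9, at 3.45%. Other measures moved with the same 3 libraries. Hemoglobin took 3.22% to 6.79% of their UMIs and at most 0.824% in the others, and mitochondrial genes 8.58% to 12.3% against at most 7.88%. Endothelial markers were found in 32.0% to 53.9% of their gated cells against 4.26% to 17.0%, pericyte and smooth muscle markers in 24.1% to 37.3% against at most 9.17%, and ependymal markers in 16.0% to 33.7% against at most 10.6%. Their part in the makeup was not tested.

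**Figure D5:**
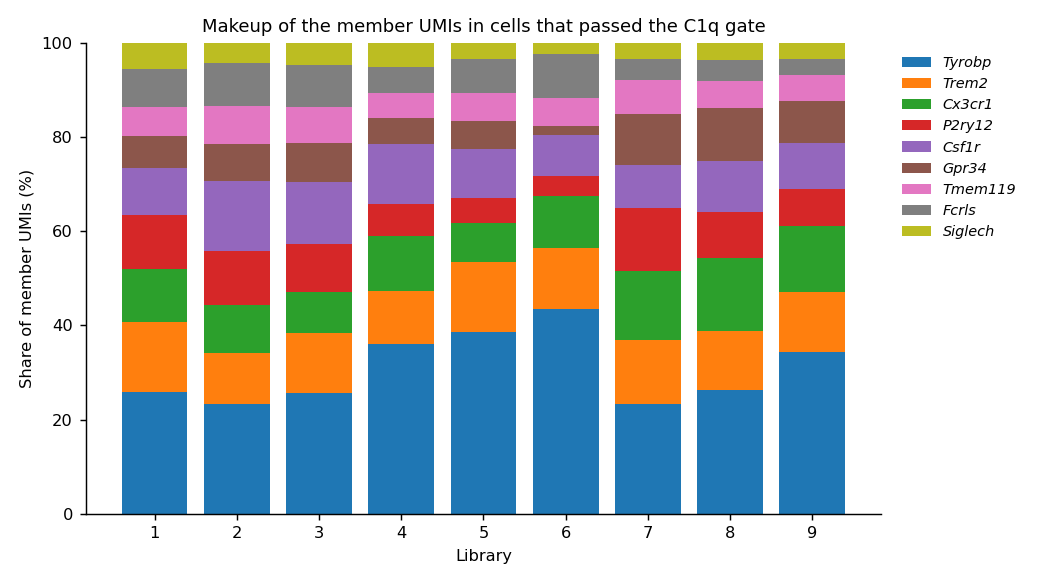
Share of the UMIs of the 9 genes, in percent, that each gene took in cells with 2 or more C1q UMIs, by library. Tyrobp is the largest part of each bar, between 23.3% and 43.6%, and Fcrls is smaller in libraries 7, 8 and 9 than in libraries 1, 2 and 3.

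The gated cells were also divided by markers of border macrophages. Gated cells with 2 or more UMIs of 10 markers of border macrophages were 6.81% (library 2) to 31.7% (library 4) of all gated cells, with a median of 16.8%, and at most 20.03% without libraries 4, 5 and 6. In libraries 4, 5 and 6 they were 31.7%, 28.7% and 27.7%, the highest shares of the 9. These cells were not macrophages alone: of the 125 of them with a listed type in library 7, 79 were microglia, 45 macrophages and 1 an astrocyte. P2ry12, Tmem119 and Gpr34 were each lower in these cells than in the other gated cells in 9 of 9 libraries, by very different amounts. P2ry12 was at 228 CPM against 1277 CPM in library 1, but at 1075 CPM against 1253 CPM in library 7 and at 309 CPM against 343 CPM in library 9. Gpr34 was at 137 CPM against 751 CPM in library 1, 890 CPM against 999.9 CPM in library 7 and 363 CPM against 382 CPM in library 9. Tyrobp was higher in them in 9 of 9 libraries, with 2492 to 3514 CPM against 685 to 2592 CPM.

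The remaining genes were mixed in this respect. Cx3cr1 and Siglech were higher without the macrophage markers in 6 of 9 libraries, Csf1r in 5, Trem2 in 4 and Fcrls in 2. With the cells that hold macrophage markers left out, P2ry12 ran from 120 CPM (library 6) to 1277 CPM (library 1) and Tyrobp from 685 CPM (library 6) to 2592 CPM (library 1), so library 6 stayed lowest. The lowest values without libraries 4, 5 and 6 were 343 CPM for P2ry12 and 1279 CPM for Tyrobp, both in library 9. Gated cells with 3 or more UMIs of markers of another class of brain cell were 16.8% (library 1) to 68.1% (library 6) of the gated cells, and at most 52.1% without libraries 4, 5 and 6. With these cells left out, Tyrobp ran from 2792 CPM in library 6 to 3943 CPM in library 1 and P2ry12 from 360.2 CPM in library 6 to 2059.9 CPM in library 7, so library 6 was still the lowest.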

How the data were processed

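Single-cell RNA was measured in 9 libraries. Per the labels and the study's methods, the authors mapped reads to GRCm38 with Cell Ranger (2.2.0 in the submitters' processing notes, which also name R 3.5.3) and deposited raw UMI counts per gene and cell with no normalization. The annotation release was not given in the sources used here, and gene positions come from GENCODE M21. All columns mapped to the table as a whole, and 0 columns of per-sample values were left out.

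Libraries were numbered by the order of their codes. Cell types were taken from a published list held for 1999 cells. UMIs were summed per class and given as CPM with exact Poisson intervals, shares with exact Clopper-Pearson intervals and ratios with exact conditional intervals, all at 95%. Differences used log2(CPM + 10), 2-fold counted as a difference, and a gene needed 10 UMIs over the compared classes. Cells were thinned to 500 UMIs for shares. There was 1 library per region and group, and no test was run. The sleep groups were not compared because only library 7 could be matched to a region and group. No doublet caller was run, and cells with 3 or more UMIs of another class's markers were left out as an alternative. The members and lists were chosen with earlier results of these data known. Genes were named by rule: all 9 members, the 2 highest and 2 lowest ratios of gated over other cells in each list, genes that a result turns on, and the 10 genes most like the members. Some genes that the rule names are not reported here. The scripts ran under Python 3.11.15 with scipy 1.17.1, numpy 2.4.6, matplotlib 3.10.9 and pandas 2.3.3, and the fold rule, intervals and thinning were tested on simulated data. Other gates, a minimum of 1000 UMIs, reduced totals, means over cells, a pseudocount of 1 CPM and leaving out libraries were the alternatives.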

Additional observations from a re-analysis of the deposited data

How the results depend on the processing

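Under the alternatives run, no difference of a gene between microglia and macrophages changed sign. The other results were only sorted into unchanged or moved, so a reversal could not be counted for them. The share of cells passing the gate was 17.6% over all libraries and became 29.0%, 14.8% and 12.9% with gates of 1, 3 and 5 C1q UMIs, 16.2% in cells of at least 1000 UMIs, 13.5% after thinning to 500 UMIs, 24.7% without libraries 4, 5 and 6, and 14.5% to 20.1% with each library left out. The median summed level in gated cells, 7025 CPM, became 2815, 8965 and 10114 CPM with those gates, 1838 CPM in cells of at least 1000 UMIs, 7612 CPM with mitochondrial, hemoglobin and hormone genes out of the totals, 9800 CPM as a mean over cells, 13092 CPM without cells holding markers of another class, 8422 CPM without libraries 4, 5 and 6, and 6555 to 7399 CPM with each library left out. The 81 combinations above the other cells were 71 at 1000 UMIs and 80 or 81 under the other alternatives that use all libraries. All 9 genes stayed highest in microglia, and 7 to 8 of them stayed 2-fold above macrophages. The alternatives without libraries 4, 5 and 6, with gated macrophages only and without cells of other types holding 5 or more members were chosen after seeing the data.

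Of the single gene values, 253 stayed within their interval or on their side of 2-fold and 458 moved, 79 of them with a gate of 1 UMI and 77 in cells of at least 1000 UMIs. At that depth Fcrls also fell just short of 2-fold over macrophages. Where a class held 0 UMIs of a gene, the limit given is that of 3 counts. No paired analysis was possible because only library 7 could be matched to a region and sleep group.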

Other observations

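Other gene lists were read in the same gated cells. A gene is counted as higher where it was at least 2-fold above the other cells of the library in 5 or more of the 9 libraries, as 3.49% of all genes were. Differences named are medians over the 9 libraries of log2(CPM + 10), gated minus other cells, and the genes were picked by their ratio pooled over libraries. Of 16 other homeostatic genes, all 16 were higher, and 11 were so in all 9 libraries. Gpr84, a receptor for medium-chain fatty acids, and P2ry13, a receptor for ADP, had differences of 1.82 and 3.23. Sparc, which vascular cells and astrocytes make too, and Itgb5, an integrin subunit, had differences of 1.38 and 2.75. Of 12 ligands and partners 9 were higher, with differences of 2.93 for Cd33, a sialic acid binding receptor, and 2.96 for Inpp5d, a phosphatase of immune receptor signalling. The ligand genes Cx3cl1 (fractalkine) and Il34, whose products bind the receptors encoded by Cx3cr1 and Csf1r, had differences of -0.76 each, and were at least 2-fold lower in 3 and in 2 of the 9 libraries. Of 11 regulators 9 were higher, among them Spi1 with 3.79, Irf8, an interferon regulatory factor, with 3.57 and Mef2c with 1.17, which was higher in 5 libraries. The other two were Smad3 with -0.46 and Tgfbr2, named after its value was seen, with 0.79.

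Of 11 genes that rise in microglia in disease models, 3 were higher by the same rule. Cd68, a lysosomal membrane protein, was so in all 9 libraries, from 127 CPM (library 6) to 615 CPM (library 1) in gated cells with a median of 331 CPM, and from 181 CPM (library 9) without libraries 4, 5 and 6. Cst7, a protease inhibitor, was higher in 4 libraries and rested on 58 UMIs in gated cells. Axl had a difference of -0.46, with 3 libraries at least 2-fold higher and 2 lower, and Spp1 one of -0.63, with 0 higher and 2 lower. Of 10 markers of border macrophages 9 were higher, with differences of 2.52 for Ms4a7, 2.63 for Mrc1, 3.08 for Stab1 and 1.19 for Cbr2. Of 8 genes of monocytes and granulocytes 0 were higher, with Ccr2 at least 2-fold higher in 4 libraries, S100a9 in 0 and Ngp in 0. Of 14 genes of the early response to stimulation or dissociation 5 were higher, among them the chemokine genes Ccl4 with 4.21 and Ccl3 with 3.34. Egr1 had a difference of -0.12, with 1 library higher and 1 lower, and Ier2 one of 0.38, with 2 higher and 0 lower. The summed level of that list in gated cells ran from 1762 CPM in library 1 to 8700 CPM in library 5, with a median of 3079 CPM, and to 3846 CPM (library 7) without libraries 4, 5 and 6. Library 1 had the highest summed level of the 9 homeostatic genes and the lowest of the early response, and whether the early response bears on the levels of the 9 genes was not tested.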
